A study of Mus musculus with 18 samples.

Results

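The genes described here are 10 major urinary protein genes of the mouse, Mup1, Mup3, Mup7, Mup9, Mup11, Mup17, Mup18, Mup20, Mup21 and Mup22, out of 35441 gene rows in the liver RNA-seq table of the study. They were taken by symbol from the table of estimated read counts, over all 18 mice. The genes were chosen by their low read counts in untreated Lipa−/− mice in earlier results of these data. Their values in comparisons with untreated Lipa−/− mice are therefore a description. Counts past the threshold are printed there only beside the share over all genes, with no p, and support nothing. The table holds 48 Mup rows in all, 22 genes and 26 pseudogenes, and sums over the family use all 48.

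Livers were taken from 3 male mice in each of 6 groups on a C57/BL6N background, namely WT littermates, untreated Lipa−/− mice and Lipa−/− mice given rAAV8, labelled 3 or 8 months, here called 12- and 34-weeks. These weeks count from the time of rAAV8 injection, not from birth. Lipa−/− mice carry the tm1a(EUCOMM)Hmgu/Biat allele with exon 4 of Lipa, the gene of lysosomal acid lipase, deleted through a Cre driven by the CMV promoter, and WT littermates were the controls. Treated Lipa−/− mice received, as young adults, rAAV8.hAAT.LIPA, which drives human LIPA cDNA with an HA tag from the hepatocyte-specific human α1-antitrypsin promoter. Per the study's methods, nearly all untreated mice were killed on reaching set endpoints before the later time point, so the 3 untreated livers labelled 8 months cannot all be taken as 34-week livers, and their exact times are not given in the sources used here. The 2 time points carry different study codes, and untreated mouse 5 at 12-weeks has a code of its own, so time and study code cannot be told apart.

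Major urinary proteins are small lipocalins, barrel-shaped carriers that hold volatile pheromones in a greasy pocket. They are made above all by hepatocytes, secreted into blood, filtered by the kidney and excreted in urine, where they slow the release of the odour and act as scent signals themselves. In the liver of male mice their transcripts are among the most abundant, and pulses of growth hormone, testosterone, thyroid hormone and glucocorticoids are known to raise them.

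The annotated family forms a single cluster on chromosome 4 of GRCm39 (chr4:59956804-62069175). All 22 annotated Mup genes lie within these 2112 kb, 21 of them on the minus strand, and no other protein-coding gene lies between them. In chromosomal order the genes described are Mup7, Mup9, Mup1, Mup11, Mup22, Mup17, Mup18, Mup3, Mup20 and Mup21. The central genes Mup1, Mup7, Mup9, Mup11, Mup17, Mup18 and Mup22 share 98.3 to 99.8% of their aligned coding bases with one another. Mup20, which encodes the male pheromone darcin, lies inside the annotated span of Mup3 and shares 90.6 to 91.5% with the central genes. Mup3 shares 83.2 to 85.9% and Mup21 83.5 to 84.9% with the central genes, while Mup3 and Mup21 share 96.3% with each other.

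This likeness limits how reads can be divided among the genes. Of the stretches of 31 bases in the canonical transcript, the share found in no other annotated gene was 2.40% for Mup7, 3.53% for Mup22, 6.85% for Mup18, 7.33% for Mup9, 7.40% for Mup1 and 9.93% for Mup11. It was 10.5% for Mup20 and 17.1% for Mup17, but 66.3% for Mup3 and 72.6% for Mup21. Values of Mup3 and Mup21 are therefore the best separated, and for the central genes the family sum is the safer quantity. Among the estimated counts 92.8% of the values of the 10 genes are not whole numbers, against 19.4% over all rows, as happens when reads are shared out by an estimate. The stretches are from GENCODE transcripts, whereas the authors assigned reads to Ensembl cDNA, and whether this changes the shares was not tested.

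The 250 bases before the annotated start site are shown for a central gene (Mup7), for the gene called higher in treated mice (Mup20) and for a gene of the third sequence type (Mup3). Annotated start sites differ in their place between these genes, so equal distances are not equal positions in an alignment. The sequences are printed 5′ to 3′ on the minus strand, and the capitals mark ATCAAT, the reverse complement of the cut and onecut core ATTGAT. Mup7 is at chr4:60070482-60070731, Mup20 at chr4:61972396-61972645 and Mup3 at chr4:62005621-62005870.
Mup7: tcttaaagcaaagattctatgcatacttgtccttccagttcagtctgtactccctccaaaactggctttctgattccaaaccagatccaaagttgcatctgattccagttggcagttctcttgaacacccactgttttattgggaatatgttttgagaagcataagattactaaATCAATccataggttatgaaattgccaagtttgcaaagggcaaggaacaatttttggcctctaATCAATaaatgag
Mup20: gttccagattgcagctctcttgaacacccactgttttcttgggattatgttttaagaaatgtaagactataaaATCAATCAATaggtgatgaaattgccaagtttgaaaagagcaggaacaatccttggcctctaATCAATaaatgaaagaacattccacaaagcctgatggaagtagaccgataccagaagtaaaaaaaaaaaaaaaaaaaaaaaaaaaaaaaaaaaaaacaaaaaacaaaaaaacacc
Mup3: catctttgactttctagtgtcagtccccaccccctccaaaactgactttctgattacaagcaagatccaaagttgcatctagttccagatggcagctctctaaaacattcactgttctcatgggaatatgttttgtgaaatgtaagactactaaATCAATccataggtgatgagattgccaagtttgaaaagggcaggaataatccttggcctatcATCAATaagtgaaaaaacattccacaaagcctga

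The core ATTGAT, searched on both strands from 250 bases before to 50 bases after the start site, was found in 10 of 10 of the genes and in 12 of 12 other Mup genes, against 7.10% of 21757 protein-coding promoters. In 7 genes, all central, it occurs as a pair whose first bases lie 63 bases apart, and in Mup3 and Mup21 the distance is 62 bases. Mup20 has 3 copies, of which the first pair overlaps. The glucocorticoid receptor core AGAACA was found in Mup3, Mup20 and Mup21 only among the 10, against 17% of all promoters. The STAT palindrome TTCNNNGAA was found in 0 of 10, against 8.82%. These copies descend from one another and are not independent, and a match to letters is not a binding site.

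The libraries held 17527848 to 25833134 reads assigned to genes, so that 3 reads of a gene correspond to 0.0946 to 0.291 CPM (counts scaled to library size, here by TMM factors of 0.587 to 1.69). Murine Lipa, the targeted gene, stood at 202 to 323 CPM in the 6 WT mice and at 16.7 to 37.0 CPM in the 12 Lipa−/− mice, and hLIPA reads were at 523 to 2750 CPM in the 6 treated mice, at 0 in the untreated ones and at no more than 0.906 CPM in WT mice. Hepatocyte markers were abundant in every group, with a summed level of 12 genes of 57300 to 71700 CPM in WT mice, 17300 to 47300 CPM in untreated Lipa−/− mice and 44100 to 88500 CPM in treated mice. The groups of 3 cannot give an exact permutation p below 0.1, so tests of single genes rest on the edgeR model across all 14533 tested genes.

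In WT livers the Mup rows were a large part of the whole transcriptome, and in untreated Lipa−/− livers they were nearly gone. At 12-weeks the family held 16.3, 13 and 9.22% of all reads in WT mice 1, 2 and 3. It held 0.0698, 0.216 and 0.05% in untreated mice 5, 8 and 9, and 25.1, 9.11 and 22.7% in treated mice 10, 11 and 12. At 34-weeks the shares were 11.1, 3.32 and 4.81% in WT mice, 0.0320, 0.0196 and 0.0120% in untreated mice, and 6.88, 8.09 and 6.33% in treated mice. Untreated mice did not overlap with WT or treated mice at either time, whereas treated and WT mice overlapped at both. The 10 genes made up 76.1 to 99.6% of the Mup reads of a mouse.

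**Figure D1:**
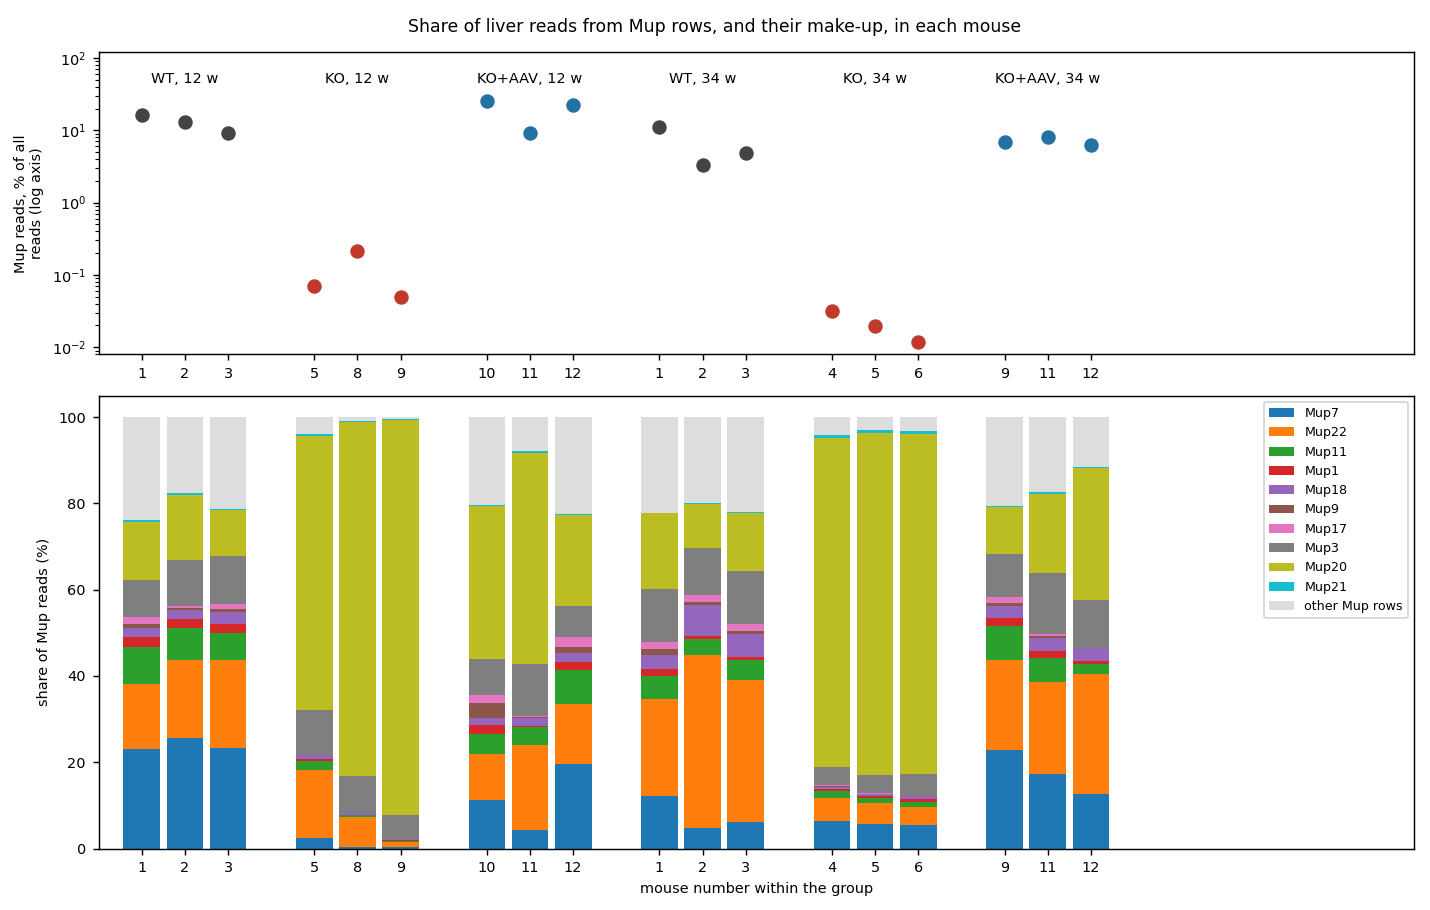
Upper panel: reads of all 48 Mup rows as a percent of the reads of each mouse, on a log axis, by group (WT, KO for untreated Lipa−/−, KO+AAV for treated Lipa−/− mice, at the times here called 12- and 34-weeks). Lower panel: the percent of these Mup reads from each of the 10 genes and from the other Mup rows. The 6 untreated mice lie between 0.0120 and 0.216% of reads, and Mup20 fills 63.4 to 91.5% of what remains in them.

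On the log2 scale the family sum in untreated mice was lower than in WT mice by a mean log2 ratio of -7.58 at 12-weeks, with SDs between mice of 1.15 in untreated and 0.47 in WT mice. At 34-weeks it was -8.80, with SDs of 0.56 and 1.11. In these livers fewer hepatocytes and less RNA per hepatocyte cannot be told apart. Albumin (Alb), another secreted hepatocyte product, averaged 45600 ± 5250 CPM in WT and 26500 ± 10700 CPM in untreated mice at 12-weeks (SD, n = 3), and 44800 ± 3570 and 20800 ± 11700 CPM at 34-weeks. Relative to Alb in the same library, the family sum was still lower in untreated mice, by a log2 ratio of -6.73 at 12-weeks and -7.56 at 34-weeks. The sum of macrophage and Kupffer cell markers moved the other way. Their 12 genes summed to 133 to 339 CPM in WT and 4330 to 9050 CPM in untreated mice at 12-weeks. At 34-weeks the sums were 244 to 519 and 4360 to 6070 CPM. Of the 12 genes 9 were called higher and 1 lower at 12-weeks, and 7 and 2 at 34-weeks. Over all tested genes 20.2% were called higher and 9.06% lower, then 20.5% and 15.7%. Neutrophil markers summed to 147 to 1770 CPM, stellate cell and myofibroblast markers to 646 to 984 CPM and cholangiocyte markers to 453 to 2230 CPM in untreated mice at 12-weeks, against 2.47 to 3.01, 132 to 233 and 29.4 to 58.7 CPM in WT mice. Of the 10 stellate cell and myofibroblast genes 6 were called higher and 1 lower at 12-weeks, read against the same shares. The part of these cells in the low Mup levels was not tested.

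Each of the 10 genes was lower in untreated Lipa−/− mice, without overlap between the groups. All 10 passed the edgeR threshold (adjusted p under 0.05 and an absolute log2 fold change over 1) at 12- and at 34-weeks, where 9.06% and 15.7% of all tested genes were called lower (20.2% and 20.5% were called higher). Since the genes were listed for this pattern, nothing is read from that count. The median log2 fold change of the 10 was -9.81 at 12-weeks and -10.6 at 34-weeks, against 0.02 and -0.03 over all tested genes. Scaling by total counts moved the median of all genes to 0.49 and 0.60, and the 10 genes kept their direction.

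Mup7, the most abundant member per length in WT mice at 12-weeks, stood at 43080, 41370 and 23310 CPM in WT and at 14.2, 5.75 and 1.21 CPM in untreated mice. The log2 fold change was -12.31 (SE 1.45), the lowest among the 8 genes with more than 3 reads in every untreated mouse. Mup22 stood at 28010, 28830 and 20370 CPM in WT and at 90.1, 128 and 5.13 CPM in untreated mice, and untreated mouse 9 lay far below the other two. Mup9 was close to silent, with 3.96, 0 and 0 reads in untreated mice 5, 8 and 9 and 3.98, 0 and 0 reads in mice 4, 5 and 6 at 34-weeks. Mup17 had 17.9, 14.1 and 1.42 reads at 12-weeks and 12.2, 3.25 and 0 reads at 34-weeks. With so few reads no fold is given for these genes; in WT mice at 12-weeks they averaged 1110 and 1630 CPM.

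Mup20 had the smallest differences of the 10 genes. Its CPM were 25060, 24190 and 10680 in WT and 361, 1522 and 372 in untreated mice at 12-weeks, with a log2 fold change of -4.73 (SE 0.83). At 34-weeks they were 24330, 3245 and 6333 in WT and 145, 109 and 68.7 in untreated mice, a log2 fold change of -6.72 (SE 0.91). Untreated mouse 8 was the highest of its group, and without it the log2 fold change at 12-weeks was -5.77. Mup21, at -6.84, was close to Mup20 at 34-weeks. Mup20 made up 10.4 to 17.6% of the Mup reads in the 6 WT mice and 63.4 to 91.5% in the 6 untreated mice, so most of the reads left to the family were assigned to this gene. Of its stretches of 31 bases 10.5% were found in no other gene and 61.9% in other Mup genes, and the rest are shared with annotated genes outside the family, which limits this assignment. It had 1870 to 39190 reads in each untreated library.

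Mup3 and Mup21, the genes with the best separated reads, were low as well. Mup3 stood at 16070, 17070 and 11020 CPM in WT and 59.4, 154 and 22.8 CPM in untreated mice at 12-weeks, with a log2 fold change of -7.55 (SE 0.82). It reached -10.46 (SE 0.92) at 34-weeks. Mup21 stood at 505, 735 and 290 CPM in WT and 2.80, 4.39 and 1.74 CPM in untreated mice at 12-weeks, with a log2 fold change of -7.42 (SE 0.68), and of -6.84 (SE 0.68) at 34-weeks. Among Mup1, Mup11 and Mup18 the log2 fold changes were -11.17, -10.64 and -8.98 at 12-weeks and -10.46, -10.78 and -11.91 at 34-weeks.

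**Figure D2:**
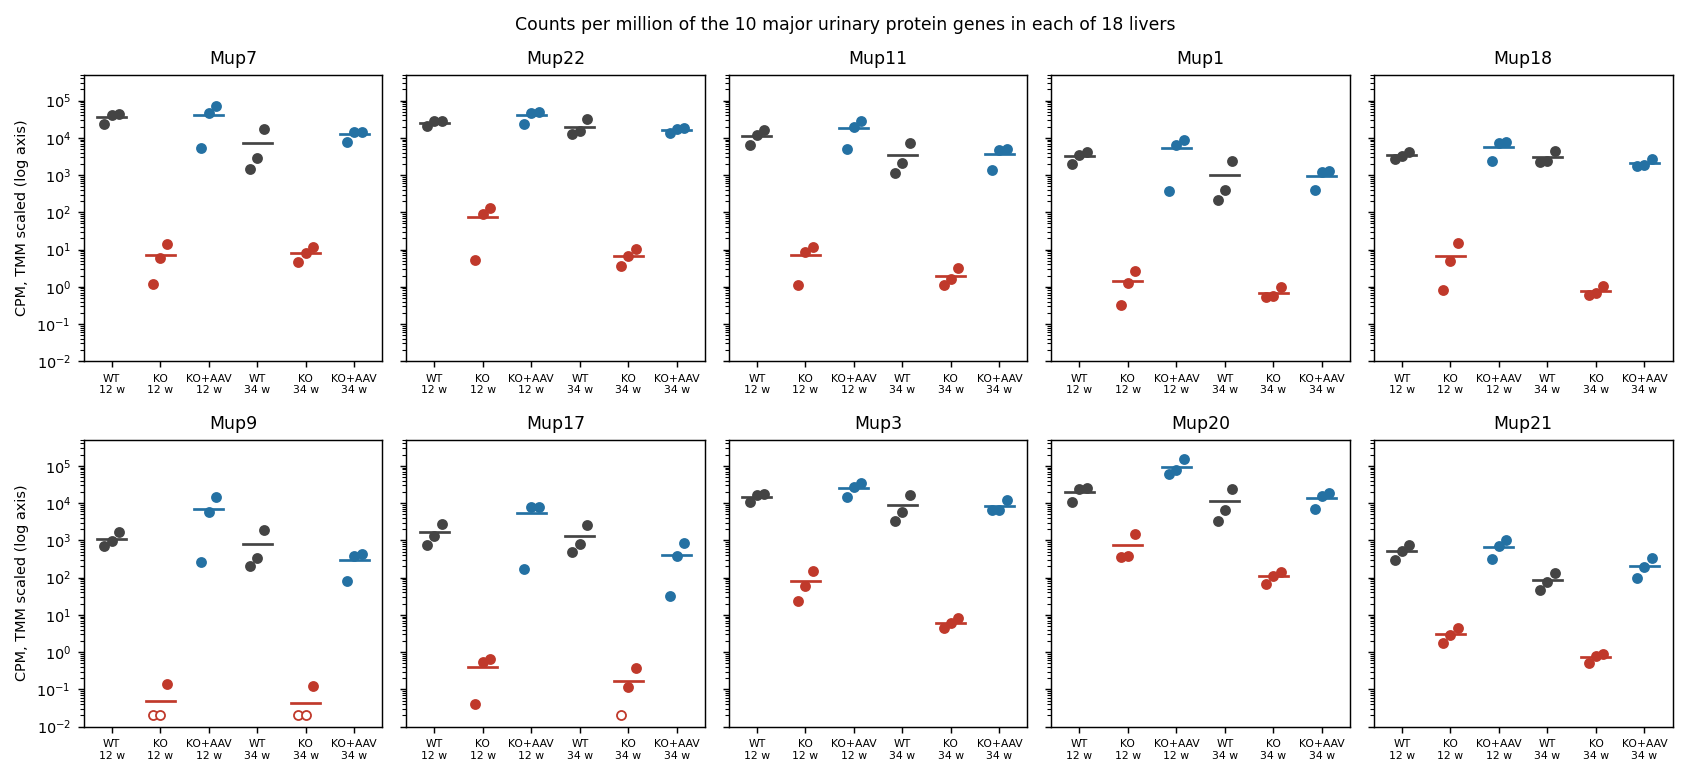
CPM (TMM scaled, log axis) of each of the 10 genes in each mouse; points are mice, bars are means of 3 mice, and open points at the bottom are libraries with 0 reads. In every panel the 6 untreated Lipa−/− mice (KO) lie below all WT and treated mice.

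In treated Lipa−/− mice at 12-weeks the Mup genes were within or above the range of WT mice in treated mice 10 and 12, and mouse 11 was below it for several genes. Of the 10 genes 1 was called, Mup20, which was higher than in WT mice. Over all tested genes 13.6% were called higher and 12% lower in this comparison. Mup20 stood at 151600, 58670 and 76750 CPM in treated mice 10, 11 and 12, above all WT mice, with a log2 fold change of 2.26 (SE 0.74, adjusted p = 0.0264 by edgeR's quasi-likelihood test). Its share of Mup reads was 35.5, 48.9 and 21.1% in treated mice and 13.5, 15 and 10.7% in WT mice, and these shares do not depend on library scaling. The call was lost without WT mouse 1 (adjusted p = 0.0549), WT mouse 3 (adjusted p = 0.110) or treated mouse 10 (adjusted p = 0.128, log2 fold change 1.68), all by edgeR. It was also lost by limma on log2(TPM + 0.1) (adjusted p = 0.0509) or log2(TPM + 1) (adjusted p = 0.0614) and at an adjusted p under 0.01. Macrophage markers summed to 1070 to 2930 CPM in these treated mice, against 133 to 339 CPM in WT mice, and hepatocyte markers to 50100 to 88500 and 58300 to 71700 CPM. Their part in the Mup20 difference was not tested.

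The other 9 genes had positive log2 fold changes of 0.20 to 2.66 that did not pass the threshold. Their sign depends on the scaling between libraries. Mean TPM in treated mice was below that in WT mice for Mup1, Mup7, Mup11, Mup21 and Mup22, and above it for Mup3, Mup9, Mup17 and Mup18. For Mup7 it was 30400 and 44100 TPM. Relative to Alb the log2 ratio was negative for Mup1 (-0.128) and Mup7 (-0.372) and positive for the rest. Mup9 had the largest log2 fold change of the 9, 2.66 (SE 1.05, adjusted p = 0.0567 by edgeR). Its CPM were 15040, 265 and 5833 in treated and 1714, 941 and 688 in WT mice, so 2 treated mice lay above and mouse 11 below the whole WT group. Without treated mouse 11 Mup9 passed (log2 fold change 3.23, edgeR adjusted p = 0.0171). Mup7, with CPM of 47750, 5193 and 70650, had a log2 fold change of 0.20 (SE 0.91, edgeR adjusted p = 0.881). Its SE exceeds its fold change, and equal levels are not shown.

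Treated mouse 11 set the spread at 12-weeks. It was lowest of the 3 treated mice in all 10 genes, but not to the same extent. The highest treated mouse exceeded the lowest 56.8-fold for Mup9, 47.3-fold for Mup17, 23.8-fold for Mup1 and 13.6-fold for Mup7. The same ratio was 2.14 for Mup22, 2.39 for Mup3, 2.58 for Mup20, 3.24 for Mup18, 3.37 for Mup21 and 5.97 for Mup11. Among WT mice at 12-weeks it ran from 1.42 for Mup22 to 3.75 for Mup17.

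At 34-weeks no Mup gene was called between treated and WT mice. The edgeR count was 0 of 10, with 1 gene (Mup21) at an unadjusted p under 0.05, and DESeq2 and limma called 0 as well. Few genes were called at all in this comparison, 0.131% higher and 0.0895% lower. Mup21 stood at 198, 333 and 97.5 CPM in treated mice 9, 11 and 12 and at 132, 46.1 and 77.3 CPM in WT mice 1, 2 and 3, a log2 fold change of 1.30 (SE 0.52, adjusted p = 0.694 by edgeR). Log2 fold changes of the 10 genes ran from -1.62 (Mup17) to 1.30 (Mup21), and the family sum had a log2 ratio of 0.23, with SDs of 0.26 in treated and 1.11 in WT mice.

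WT mice themselves spread widely at 34-weeks. Mup7 was at 16880 CPM in WT mouse 1 but at 1450 and 2956 CPM in mice 2 and 3, an 11.6-fold range. Mup1 ranged 11.0-fold, Mup9 9.05-fold and Mup20 7.50-fold, while Mup18 and Mup22 ranged 1.94- and 2.50-fold. Without WT mouse 2 the family ratio of treated to WT mice was -0.23 on the log2 scale, and without WT mouse 1 it was 0.85, so its sign is not settled by these mice.

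Against untreated mice, all 10 genes were higher in treated mice at both times, where 16.2% (12-weeks) and 12.8% (34-weeks) of all tested genes were called higher. The log2 ratio of the family sum was 8.45 at 12-weeks and 9.03 at 34-weeks. These comparisons share the untreated mice with those above and add no separate evidence on them. Mup20 had a log2 fold change of 6.99 (SE 0.92) at both times. Among the other genes with more than 3 reads in every untreated mouse, the values ran from 7.84 (Mup21) to 12.51 (Mup7) at 12-weeks and from 8.14 (Mup21) to 11.37 (Mup18) at 34-weeks.

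In treated mice the family sum was lower at the later time, by a log2 ratio of -1.94 from CPM (SDs of 0.26 at 34- and 1.00 at 12-weeks) but of -0.94 from TPM. The fall was not particular to treated mice. From CPM the ratio was -1.29 in WT mice (SDs of 1.11 at 34- and 0.47 at 12-weeks) and -2.52 in untreated mice (SDs of 0.56 and 1.15). At 34- against 12-weeks 7 of the 10 genes were called lower, Mup1, Mup3, Mup9, Mup11, Mup17, Mup20 and Mup21, where 14.5% of all tested genes were called lower. Mup20 had a log2 fold change of -2.81 (SE 0.76, adjusted p = 0.00732 by edgeR) and passed under every alternative. Its CPM at 34-weeks were 7008, 15490 and 18420 in treated mice 9, 11 and 12, all below the 3 mice at 12-weeks. Mup9 had the lowest value, -4.56 (SE 1.15, edgeR adjusted p = 0.00507), with 430, 383 and 81.9 CPM at 34-weeks, and treated mouse 11 at 12-weeks lay inside that range. Mup7, Mup18 and Mup22 had log2 fold changes of -1.74, -1.46 and -1.31 that did not pass (edgeR adjusted p = 0.137, 0.0741 and 0.141). The count of 7 fell to 3 without treated mouse 10 or 12 at 12-weeks or treated mouse 9 or 12 at 34-weeks, to 3 with total counts, to 2 at an adjusted p under 0.01 or by limma on log2(TPM + 1), and to 1, Mup20, by limma on log2(TPM + 0.1). Over the same times macrophage markers in treated mice went from 1070 to 2930 down to 374 to 917 CPM and stellate cell and myofibroblast markers from 373 to 943 down to 232 to 277 CPM, and their part in these differences was not tested.

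In WT mice no gene was called between the times by edgeR, where 0.323% of all genes were called. At an unadjusted p under 0.05 there were 2, Mup7 and Mup21, and DESeq2 called 1. Mup21 was the nearest, at 505, 735 and 290 CPM at 12-weeks and 132, 46.1 and 77.3 CPM at 34-weeks without overlap, with a log2 fold change of -2.59 (SE 0.54, adjusted p = 0.0512 by edgeR). It passed by DESeq2 (adjusted p = 0.000206), by limma with either pseudocount (adjusted p = 0.0314 and 0.0239), by edgeR with upper-quartile factors, total counts, length offsets or no filter on low counts (adjusted p = 0.0448, 0.0385, 0.0470 and 0.0107), and by edgeR without WT mouse 1 at 34-weeks (adjusted p = 0.0347) or WT mouse 3 at 12-weeks (adjusted p = 0.0452), over a range of adjusted p from 0.000206 to 0.261. In untreated mice the log2 fold changes between the times ran from 0.21 (Mup7) to -3.67 (Mup3, SE 0.69) over the 8 genes with enough reads. Mup3 was past the edgeR threshold, where 0.461% of all genes were called lower, but the count of 1 became 0 in a fit to these groups alone, 5 by DESeq2 and 0 to 3 with a mouse left out, and nothing is read from it.

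Whether the difference between treated and WT mice itself changed with time was tested as an interaction. No gene of the 10 was called (edgeR, 0 by DESeq2 and 0 by limma, 1 at an unadjusted p under 0.05), where 18.4% of all tested genes were. Mup9 was the nearest, with a difference of log2 fold changes, 34- minus 12-weeks, of -4.08 (SE 1.46, edgeR adjusted p = 0.0567). Mup20 had -1.99 (SE 1.01, edgeR adjusted p = 0.157). That Mup20 was called at 12- and not at 34-weeks is thus not shown to be a difference between the times.

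**Figure D3:**
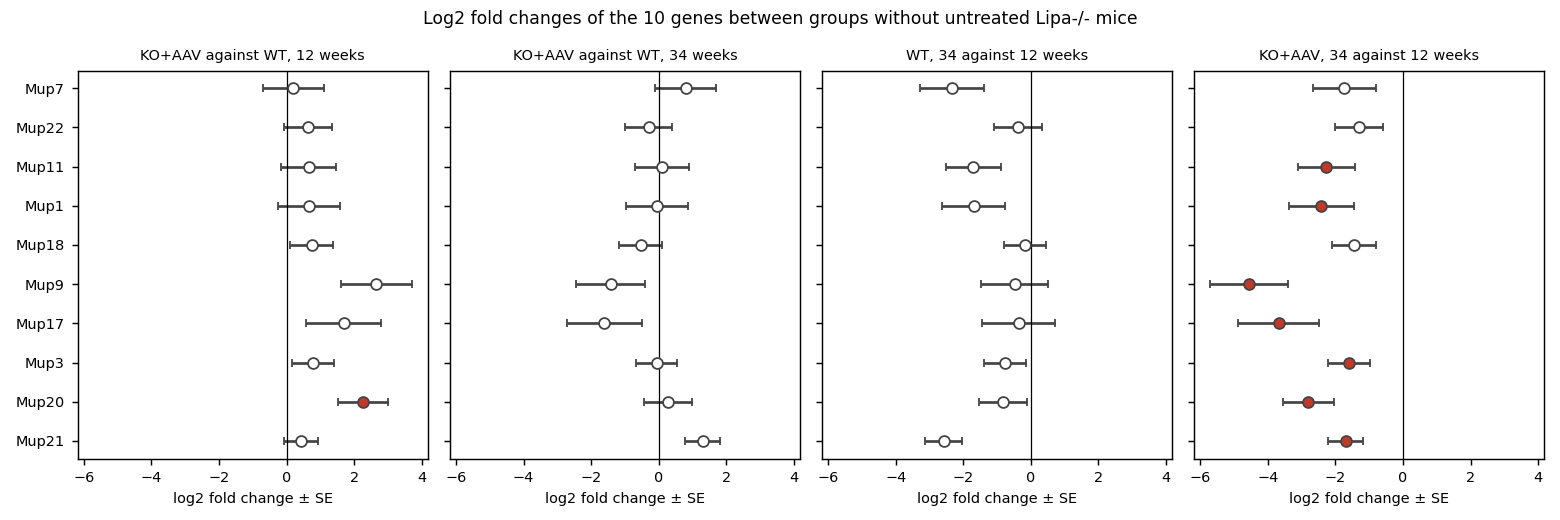
Log2 fold changes with their SE for the 10 genes in the 4 comparisons without untreated Lipa−/− mice; bars are SE and red points passed the edgeR threshold. Mup20 is the red point for treated (KO+AAV) against WT mice at 12-weeks, and 7 genes are red for treated mice between the times.

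The order of the genes was set by values per length (TPM). In WT mice at 12-weeks it was Mup7 (44100 ± 10300 TPM, SD, n = 3), Mup22 (34800 ± 3240), Mup20 (24000 ± 8160), Mup3 (17900 ± 2300) and Mup11 (14700 ± 5450), and the other 5 genes averaged 961 to 4500 TPM. Mup7 and Mup22 overlapped, as did Mup20 with Mup3 and Mup3 with Mup11, while Mup22 did not overlap with Mup20. In treated mice at 12-weeks Mup20 led with 71000 ± 24300 TPM, above Mup22 at 33400 ± 8630 TPM without overlap, and it ranked 1 among all tested genes in each of the 3 mice. In WT mice it had ranked 5 to 11. At 34-weeks Mup22 led in WT (29000 ± 6430 TPM) and treated mice (27500 ± 1460 TPM), and it overlapped with Mup20 in both groups. In untreated mice Mup20 led at both times, with 1290 ± 1130 and 257 ± 129 TPM and no overlap with the next gene, Mup22 at 12-weeks (139 ± 118 TPM) and Mup7 at 34-weeks (20 ± 12.3 TPM).

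Across the 12 WT and treated mice the genes varied together, but in unequal amounts. The SD of log2 CPM was 0.66 for Mup22, 0.70 for Mup18 and 0.97 for Mup3, and 1.73 for Mup7, 1.78 for Mup1, 2.12 for Mup9 and 2.26 for Mup17. Pearson's r of log2 CPM over these mice had a median of 0.838 over the 45 pairs, from 0.397 (Mup17 with Mup20) to 0.957 (Mup1 with Mup7). Mup20 followed Mup3 (r = 0.921) and Mup22 (r = 0.893) more closely than Mup1 (r = 0.649) or Mup9 (r = 0.694). These points share libraries, groups and, for the central genes, reads.

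The other 12 annotated Mup genes moved in the same direction in untreated mice, and all 12 passed the threshold as lower at both times. Over all tested genes 9.06% were called lower at 12-weeks and 15.7% at 34-weeks. The 12 genes share sequence with the genes chosen for low counts, so their count is a description and supports nothing. Among the other 12 genes Mup14 and Mup19 were the most abundant in WT mice at 12-weeks, at 12500 ± 3600 and 12600 ± 6260 CPM. At 12-weeks Mup2 and Mup6 were called higher in treated than in WT mice, where 13.6% of all tested genes were. Nothing is read from this count. Mup6 had few reads, at 0.381 ± 0.171 CPM in WT and 1.65 ± 0.398 CPM in treated mice at 12-weeks. The count at 34-weeks was 0 (edgeR, 1 at an unadjusted p under 0.05), where 0.131% of all tested genes were higher and 0.0895% lower. Mup2, Mup15 and Mup19 have no stretch of 31 bases of their own, and for Mup14 the share is 0.322%. The 26 pseudogene rows held 0.00585 to 0.111% of the Mup reads of a mouse.

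Mup genes are a textbook part of the male programme of the liver. Most tested genes of a list of that programme were also lower in untreated mice. This list and those below were chosen with earlier results of these data known, so their counts are a description. Of 29 tested genes of a list of male-biased liver genes, 26 passed as lower and 0 as higher in untreated mice at 12-weeks, and 22 as lower and 1 as higher at 34-weeks. Over all tested genes 9.06% were lower and 20.2% higher at 12-weeks, and 15.7% and 20.5% at 34-weeks. Slco1a1, an organic anion uptake transporter, averaged 551 ± 105 CPM in WT and 0.842 ± 0.393 CPM in untreated mice at 12-weeks, and 886 ± 284 CPM in treated mice. In treated mice 2 of the list were higher and 2 lower than in WT mice at 12-weeks, and 3 were higher at 34-weeks, where the shares over all genes were 13.6% higher and 12% lower, then 0.131% higher and 0.0895% lower. Ugt2b5, a glucuronosyltransferase, rose at 12-weeks (log2 fold change 1.16, SE 0.35, edgeR adjusted p = 0.0190), as did Nudt7 (1.27, SE 0.44, edgeR adjusted p = 0.0334). Susd4 (-2.09, SE 0.52, edgeR adjusted p = 0.0086) and Cyp4a12b (-2, SE 0.67, edgeR adjusted p = 0.0285) fell. At 34-weeks Selenbp2 (4.60, SE 0.52, edgeR adjusted p = 0.000762) and Serpina1e (3.85, SE 0.57, edgeR adjusted p = 0.00633), genes with close paralogs, rose against WT mice whose levels were low at that time, Selenbp2 at 460 to 1200 CPM at 12- and 9.54 to 11.8 CPM at 34-weeks.

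Genes with a female bias moved in both directions. Of 21 tested, 11 passed as higher and 3 as lower in untreated mice at 12-weeks, and 7 as higher and 9 as lower at 34-weeks, with medians of 2.22 and -0.34 on the log2 scale, against 20.2% higher and 9.06% lower, then 20.5% and 15.7%, over all genes. Atp6v0d2, a subunit of the proton pump that macrophages also express, averaged 0.873 ± 0.242 CPM in WT and 116 ± 37.6 CPM in untreated mice at 12-weeks. Sult1e1, the oestrogen sulfotransferase, averaged 0.204 ± 0.104 and 48.2 ± 41.1 CPM. In treated mice 2 were higher and 1 lower than in WT at 12-weeks, and 4 were lower at 34-weeks (all genes 13.6%, 12% and 0.0895%). Among the latter Slc22a27, an organic anion transporter, had a log2 fold change of -3.31 (SE 0.41, edgeR adjusted p = 0.00147), and WT mice were at 0.515 ± 0.324 CPM at 12- and 12.4 ± 3.58 CPM at 34-weeks.

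Of 18 growth hormone signalling genes, 3 passed as higher and 3 as lower in untreated mice at 12-weeks, and 5 and 2 at 34-weeks. These counts lie near the shares over all genes (20.2% higher and 9.06% lower, then 20.5% and 15.7%), and nothing is read from them. Ghr, the growth hormone receptor, averaged 540 ± 11.5 CPM in WT, 148 ± 25.6 CPM in untreated and 498 ± 78.4 CPM in treated mice at 12-weeks, and 430 ± 36.1, 74.0 ± 24.4 and 439 ± 45.1 CPM at 34-weeks. Igf1, the growth factor that the receptor induces, averaged 578 ± 29.0, 422 ± 182 and 636 ± 71.8 CPM at 12-weeks, and Stat5b, which carries the signal to the nucleus, 49.1 ± 11.6, 37.6 ± 7.63 and 40.2 ± 6.92 CPM. Neither passed in untreated mice, and their log2 fold changes at 34-weeks were -0.91 and -0.78. Socs2 and Cish, feedback inhibitors, had 0.65 and -1.65 at 12-weeks without passing, and Socs2 passed at 34-weeks with 2.59. In treated against WT mice 4 of the 18 were lower at 12-weeks (all genes 12%), among them Cish (-2.89, SE 0.80, edgeR adjusted p = 0.0126), and 0 at 34-weeks (edgeR, 0 at an unadjusted p under 0.05).

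Of 19 transcription factors tied to sex bias in the liver, 5 passed as lower and 1 as higher in untreated mice at each time, against 9.06% lower and 20.2% higher over all genes at 12-weeks and 15.7% and 20.5% at 34-weeks. Cux2, the gene called higher at both times, averaged 0.139 ± 0.165 CPM in WT and 2.71 ± 4.17 CPM in untreated mice at 12-weeks. Its untreated values at 12-weeks were 0.272, 0.323 and 7.52 CPM from lowest to highest, against at most 0.322 CPM in WT mice. The highest mouse thus sets that mean. At 34-weeks the levels of Cux2 were 0.281 ± 0.197 and 4.84 ± 1.68 CPM. Onecut1, whose family binds the core shown in capitals above, averaged 47.1 ± 27.6 CPM in WT, 2.26 ± 2.12 CPM in untreated and 4.00 ± 1.47 CPM in treated mice at 12-weeks. In the same groups at 34-weeks it averaged 7.4 ± 5.75, 2.83 ± 1.06 and 12.2 ± 3.3 CPM. At 12-weeks Onecut1 was lower in treated than in WT mice (log2 fold change -3.56, SE 0.70, edgeR adjusted p = 0.00359). The part of Onecut1 in the Mup levels was not tested. In treated mice 9 of the 19 were lower than in WT at 12-weeks, where 12% of all genes were, and 0 at 34-weeks (edgeR, 0 at an unadjusted p under 0.05).

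Other lipocalins and secreted proteins moved in both directions. Of 15 other lipocalins and related binding proteins tested, 6 passed as higher and 5 as lower in untreated mice at 12-weeks, and 5 and 5 at 34-weeks, against 20.2% higher and 9.06% lower, then 20.5% and 15.7%, among all tested genes. Lcn2, an iron-siderophore carrier of the acute phase, averaged 2.64 ± 1.25 CPM in WT and 1930 ± 893 CPM in untreated mice at 12-weeks, and Orm2, an acid glycoprotein, 12.3 ± 2.36 and 1080 ± 740 CPM. Of 30 abundant secreted hepatocyte proteins 6 passed as lower and 2 as higher at 12-weeks, and 15 and 2 at 34-weeks, read against the same shares, with medians of -0.57 and -0.96 on the log2 scale. Serpina3k, a protease inhibitor, averaged 13300 ± 2200 CPM in WT and 2160 ± 739 CPM in untreated mice at 12-weeks.

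**Figure D4:**
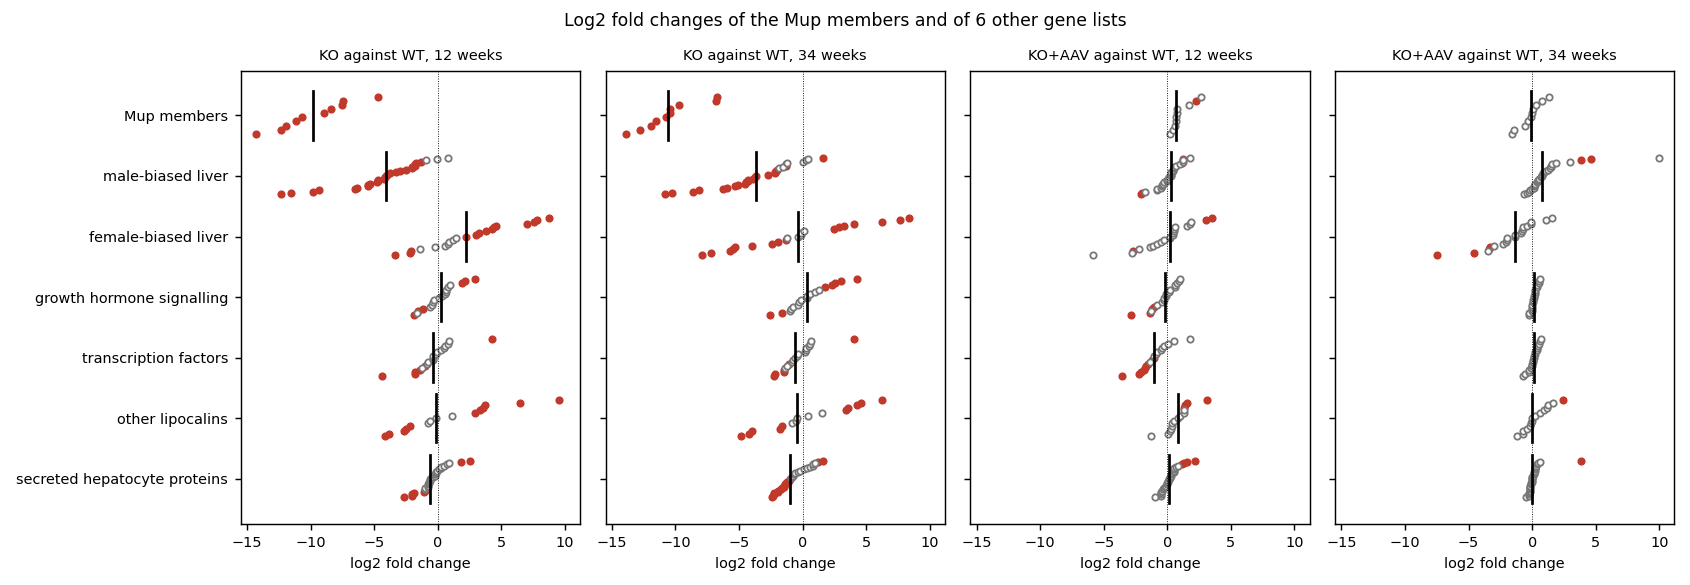
Log2 fold changes against WT mice of the 10 Mup genes and of the tested genes of 6 other lists, in untreated (KO) and treated (KO+AAV) mice; red points passed the edgeR threshold, and the black bar is the list's median. The Mup medians are -9.81 and -10.6 in untreated and 0.71 and -0.06 in treated mice, and values of genes with near 0 reads in a group, such as Mup9 and Mup17, depend on the prior count of the fit.

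Over the 18 mice, the gene outside the family whose log2 CPM was most like the Mup sum was Sult2a8, a sulfotransferase (Pearson's r = 0.994, Spearman's rho = 0.977, among 12573 genes averaging 1 CPM or more). It was followed by Ugt2b1 (0.991), Abhd18 (0.989), Abcb10 (0.984) and Cyp2c67 (0.983). Sult2a8 averaged 986 ± 225 CPM in WT, 4.41 ± 2.92 CPM in untreated and 2400 ± 1590 CPM in treated mice at 12-weeks. By deviations from the group means, which leave out the differences between groups, the most alike were Etfbkmt (0.836), Cpsf4l (0.835), Sult2a8 (0.829), Guf1 (0.824) and Tapt1 (0.794). These correlations are over mice that share groups, and Sult2a8 was on both lists. With scaling by total counts Guf1 fell to 0.303, whereas Sult2a8 kept 0.762.

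The genes that flank the cluster had smaller differences. Snx30 lies 52.1 kb from one end, and its level was 3.71 ± 1.26 CPM in WT, 6.64 ± 0.573 CPM in untreated and 2.35 ± 0.244 CPM in treated mice at 12-weeks. Zfp37 lies 38.6 kb from the other end and was at 0.289 ± 0.116, 0.261 ± 0.273 and 1.20 ± 1.32 CPM, near the level of 3 reads. Inip, E130308A19Rik, Slc31a2 and Fkbp15, the next genes outward, had log2 fold changes between -0.67 and 1.21 in untreated against WT mice at 12-weeks. Of these Slc31a2 (1.21, SE 0.31) passed the threshold as higher, where 20.2% of all tested genes did. At 34-weeks Snx30 passed as higher in untreated mice (log2 fold change 1.11, SE 0.37), where 20.5% of all tested genes did. In treated against WT mice at 12-weeks, Slc31a2 had 1.00 (SE 0.31, edgeR adjusted p = 0.0220) and missed the fold limit, and Zfp37 had 1.98 (SE 0.81, edgeR adjusted p = 0.0630). Slc31a2 was called in the interaction (-1.43, SE 0.44, edgeR adjusted p = 0.0363), where 18.4% of all tested genes were.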

How the data were processed

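Liver RNA of 18 mice was sequenced after polyA selection. The authors quantified reads with Salmon against Ensembl GRCm39 cDNA and summarised them per gene with tximport, and deposited estimated counts, TPM values and effective gene lengths. The estimated counts were rounded here, and genes with more than 100 reads over the 18 mice were tested with edgeR 4.0.16 (R 4.3.3): TMM factors, a fit of 6 group means to all mice and quasi-likelihood tests, with Benjamini-Hochberg adjustment over all tested genes. Calls needed an adjusted p under 0.05 and an absolute log2 fold change over 1. DESeq2 1.42.0 and limma 3.58.1 on log2(TPM + 0.1) or log2(TPM + 1) were alternatives. The family sum adds the CPM of all Mup rows and has no test. Sequences come from GENCODE annotation of GRCm39. Scripts were tested on simulated data. The 10 genes and the gene lists were chosen with earlier results of these data known. Named were all 10 genes, up to 4 called genes of each list with the largest change, a fixed set (Ghr, Stat5b, Igf1, Socs2, Cish, Lcn2, Alb, Lipa), the 5 genes most like the family sum by either measure, and 3 genes on each flank.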

Additional observations from a re-analysis of the deposited data

How the results depend on the processing

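Counts in comparisons with untreated mice follow from how the genes were chosen and say nothing of stability. For treated against WT mice at 12-weeks the count of 1 became 2 with no filter, 0 at an adjusted p under 0.01 and 0 by limma on TPM with either pseudocount, and 0 to 2 with a mouse left out. In WT mice between the times the count of 0 became 1 with upper-quartile factors, total counts, length offsets, no filter, limma with either pseudocount and DESeq2, and 0 to 1 with a mouse left out. In untreated mice between the times it became 3 with no filter, 0 with only the groups compared, 0 at 0.01, 2 by limma on log2(TPM + 1) and 5 by DESeq2, and 0 to 3 with a mouse left out. In treated mice between the times the 7 became 3 with total counts, 2 at 0.01, 1 and 2 by limma with pseudocounts of 0.1 and 1, 1 with the replicate block, and 3 to 8 with a mouse left out. The interaction count of 0 became 1 with no filter and 0 to 1 with a mouse left out.

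The family sum at 34-weeks was -7.56 in untreated against WT mice relative to Alb, a ratio chosen after seeing the data, and 8.49 with total counts, 8.52 from TPM and 8.02 relative to Alb in treated against untreated mice. From TPM it was 7.36 in treated against untreated mice at 12-weeks and -0.94 in treated mice between the times. The cause of these differences was not tested. Deviations of same-numbered mice had r of 0.0763, -0.24 and 0.46 in WT and -0.077 and -0.253 in treated mice, too few pairs to settle a pairing. The times carry different study codes and livers were taken at death, so a shared number is not a shared mouse. The block left 0 genes called in WT mice. In treated mice only numbers 11 and 12 occur at both times, so the block there rests on them. Untreated groups share a single number and have no such fit. With total counts the median over all tested genes went from 0.06 to -0.33 in treated against WT mice at 12-weeks and from 0.08 to 0.71 in treated mice between the times, on the log2 scale.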
